A study of Mus musculus with 4 samples.

Results

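Sterol and fatty acid synthesis under the sterol regulatory element-binding proteins (SREBPs) was followed through 36 mouse genes, picked by symbol from the 45777 genes of the expression table. They comprised 7 genes of the mevalonate pathway and 11 of the route from farnesyl diphosphate through squalene to cholesterol. A further 5 encode the SREBPs, their carrier SCAP and the INSIG proteins that hold them back. The rest were 6 of sterol transport and the liver X receptors (LXRs), and 7 of fatty acid synthesis. The RNA came from C2C12 myotubes, the fused muscle fibres that form when this mouse myoblast line differentiates, kept in DMEM with 2% horse serum. There were 4 poly(A) RNA-seq libraries, 1 per group: EPS, its control, clenbuterol (an agonist of the beta-2 adrenergic receptor) and its control. EPS is not spelled out in the labels and was read as electrical pulse stimulation, a way to make cultured myotubes contract, and the design calls both agents in vitro models of exercise. The treatment field gives 30 ng/ml clenbuterol for all 4 libraries, the controls included, so the clenbuterol groups were taken from the titles. Pulse settings and the length of either treatment were not given. All libraries come from 1 cell line, and none has a second culture, so no difference below has a replicate check, none was tested, and no p-value is given.

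The EPS pair carries a conflict. The record titled as the EPS control holds data whose column is named EPS, and the record titled EPS holds data whose column is named as its control. The names titled EPS and titled EPS control are used for these 2 libraries, and each direction given for that pair turns round if the column names are right. Estimated counts per library totalled 35597074 in titled EPS, 32640884 in titled EPS control, 33148483 in clenbuterol and 33408083 in its control. Levels are given in TPM (transcript abundance corrected for gene length and scaled to 1 total in every library) and differences as ratios of CPM (counts scaled to library size) with a 95% counting interval, which covers the chance of sampling reads and nothing that varies between cultures. Markers of myotubes were abundant, with 8 markers summing to 11039 TPM in titled EPS, 15223 in titled EPS control, 16982 in clenbuterol and 16443 in its control. Of 6 adipocyte markers, all were at 0 in titled EPS, clenbuterol and the clenbuterol control, and 5 were at 0 in titled EPS control, where Fabp4 had 4 counts. Of 5 immune markers, Ptprc and Adgre1 were at 0 in every library, and the 5 summed to between 2.93 and 5.03 TPM. Most of that was Cd68, a macrophage marker also made by other cells, at 4.70 TPM in titled EPS, 3.29 in titled EPS control, 2.79 in clenbuterol and 4.88 in its control. Its CPM ratio was 1.54 (1.09 to 2.19) in titled EPS over its titled control and 0.569 (0.390 to 0.822) in clenbuterol over its control. Csf1r lay the other way in the EPS pair, with 6 counts in titled EPS and 22 in titled EPS control (ratio 0.246, 0.0816 to 0.626). It had 8 counts in clenbuterol and 9 in its control. Lyz2 had 5 counts in titled EPS, 6 in titled EPS control and 0 in both clenbuterol libraries. The part of these markers in the results below was not tested.

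SREBPs are made as membrane-bound precursors in the endoplasmic reticulum. When membrane sterol is low, SCAP carries them to the Golgi, where proteases free the part that enters the nucleus and binds sterol regulatory elements near the genes of cholesterol and fatty acid synthesis. When sterol is plentiful, INSIG proteins hold SCAP back, and oxysterols activate LXRs, which raise sterol export and, in liver, the transcription of Srebf1. SREBP-2, from Srebf2, acts mainly on sterol genes, while the SREBP-1c form of Srebf1 acts mainly on fatty acid genes. SREBPs bind DNA weakly on their own and usually act beside NF-Y, which binds the CCAAT box, or Sp1.

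Promoter sequence is shown for 4 members: Hmgcs1, which held the sterol regulatory element searched for, and Insig1, Idi1 and Dhcr7, whose levels set titled EPS apart from the other libraries. Windows of 300 bases around an annotated start, most of it upstream, come from RefSeq on GRCm38.p6 and matched 30 of the 36 genes; Abcg1, Sqle, Stard4, Fdps, Fdft1 and Fads1 were not among them. All 4 windows are on the + strand: chr13:119690101-119690400 for Hmgcs1, chr5:28071162-28071461 for Insig1, chr13:8885356-8885655 for Idi1 and chr7:143829964-143830263 for Dhcr7, for which 2 further annotated starts had windows with no match. Capitals mark the sterol regulatory element TCACNCCAC, on either strand, and the CCAAT box, which reads ATTGG where it lies on the other strand.
Hmgcs1: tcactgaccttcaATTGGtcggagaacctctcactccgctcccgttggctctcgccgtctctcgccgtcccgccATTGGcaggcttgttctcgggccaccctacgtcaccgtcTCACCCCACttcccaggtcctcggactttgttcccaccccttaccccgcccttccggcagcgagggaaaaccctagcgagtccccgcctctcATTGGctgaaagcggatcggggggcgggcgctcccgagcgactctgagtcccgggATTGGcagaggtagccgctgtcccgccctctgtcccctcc
Insig1: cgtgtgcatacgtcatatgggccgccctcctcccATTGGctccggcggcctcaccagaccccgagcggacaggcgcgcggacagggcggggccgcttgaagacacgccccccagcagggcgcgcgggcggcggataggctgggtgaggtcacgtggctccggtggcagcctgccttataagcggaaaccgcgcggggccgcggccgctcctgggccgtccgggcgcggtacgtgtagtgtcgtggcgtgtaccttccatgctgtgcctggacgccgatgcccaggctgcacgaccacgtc
Idi1: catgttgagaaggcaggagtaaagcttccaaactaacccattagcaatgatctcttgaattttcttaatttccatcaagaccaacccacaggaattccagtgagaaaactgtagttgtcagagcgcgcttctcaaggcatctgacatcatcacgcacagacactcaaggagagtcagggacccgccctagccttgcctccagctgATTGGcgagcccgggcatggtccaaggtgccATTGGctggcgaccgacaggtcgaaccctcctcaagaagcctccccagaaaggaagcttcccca
Dhcr7: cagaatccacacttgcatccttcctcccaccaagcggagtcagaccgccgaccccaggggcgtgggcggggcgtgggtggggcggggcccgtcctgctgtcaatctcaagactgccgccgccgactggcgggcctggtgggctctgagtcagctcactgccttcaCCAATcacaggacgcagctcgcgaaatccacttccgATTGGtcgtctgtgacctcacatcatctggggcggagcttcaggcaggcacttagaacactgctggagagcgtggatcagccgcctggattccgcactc
Hmgcs1 holds 1 sterol regulatory element and 4 CCAAT boxes, Insig1 holds 1 CCAAT box, and Idi1 and this Dhcr7 window hold 2 each.

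Among the 30 matched members, TCACNCCAC was found in 1 (Hmgcs1), against 1.44% of 27025 genes with a window. The looser TCACNCNAC, which contains the first motif, was found in 2 (Hmgcs1 and Nsdhl), against 3.15% of genes. CCAAT was found in 22 of 30 members (73.3%), against 41.1% of all genes and 43.3% of 10262 genes that reached 1 TPM. Both strands were searched. A match is a run of letters and not a measured binding site, and a window without one says nothing of binding elsewhere.

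All 36 genes had counts in every library, and 29 had at least 20 TPM in each. The members were counted more deeply than most genes: the median of their mean counts was 3506, against 818.5 over the 14213 genes that reached 1 TPM in some library. Fdps, which makes farnesyl diphosphate, was the most abundant, at 588 TPM in titled EPS, 535 in titled EPS control, 482 in clenbuterol and 482 in its control. Hmgcs1, which makes HMG-CoA at the entry to the mevalonate pathway, followed it in both EPS libraries and in clenbuterol, and in the clenbuterol control it stood level with Ebp, at 221 TPM each. At the low end stood Abcg1, a sterol exporter, with 30 to 48 counts per library, and Nr1h3, which encodes LXR-alpha, with 11 to 32. Acat2, which condenses acetyl-CoA at the start of the route, has a near-identical copy, Acat3, between which reads may have been split.

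**Figure D1:**
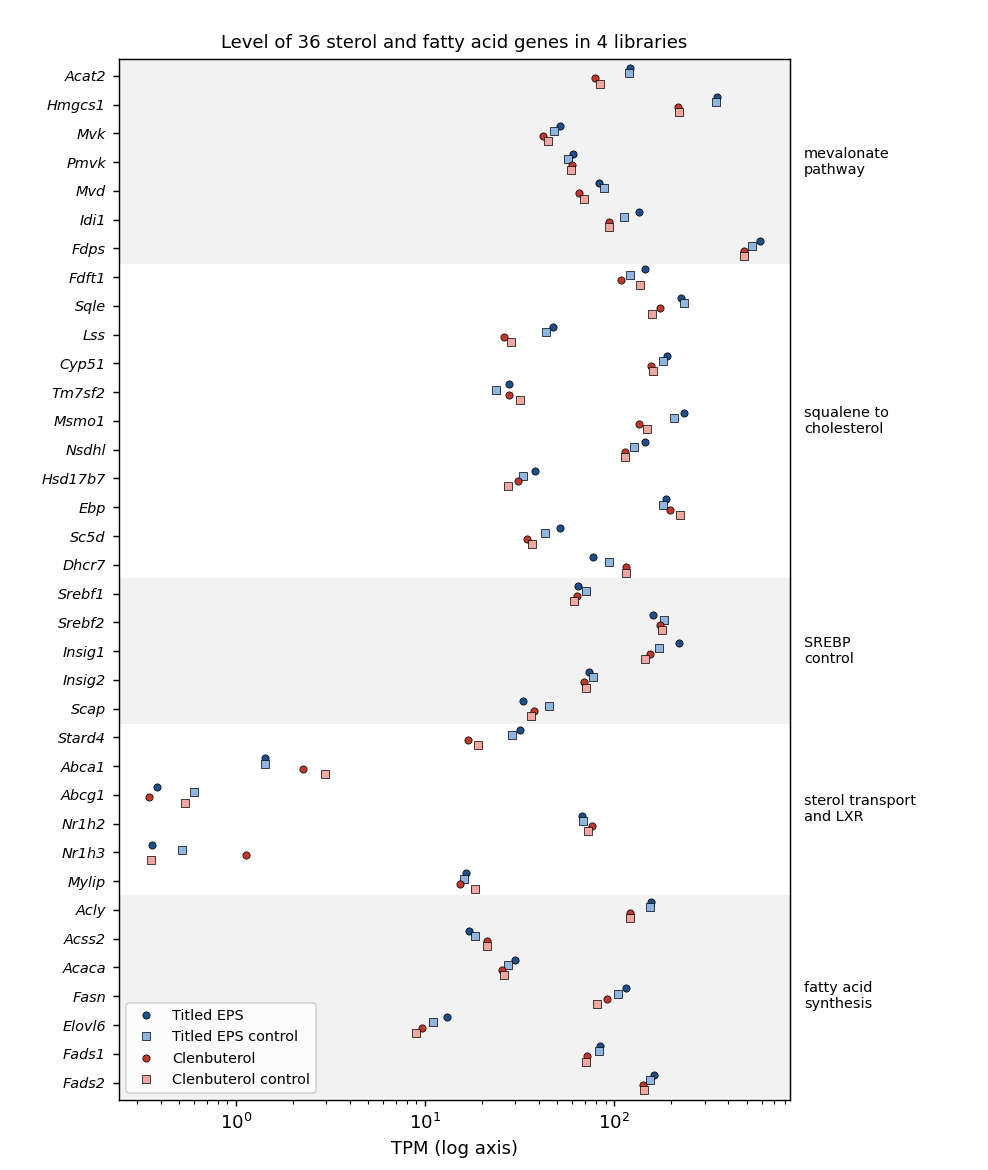
Level of each of the 36 genes in TPM (log axis), by role; circles are titled EPS (dark blue) and clenbuterol (red), and squares are their controls, each point 1 library. Most enzymes lie between 20 and 600 TPM, while Abca1, Abcg1 and Nr1h3 lie near or below 3 TPM.

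The balance between paired genes was read from TPM. Srebf2 was the more abundant of the SREBP genes, at 2.49 times Srebf1 in titled EPS, 2.57 times in titled EPS control, 2.74 times in clenbuterol and 2.92 times in its control. Insig1 was at 3.0 times Insig2 in titled EPS, against 2.22 times in titled EPS control, 2.22 times in clenbuterol and 2.03 times in its control. Titled EPS therefore held the highest Insig1 to Insig2 ratio of the 4 libraries, while the other libraries lay close together. Nr1h2, which encodes LXR-beta, was the main LXR gene in each library, at 67.4 TPM in titled EPS, 67.9 in titled EPS control, 76.2 in clenbuterol and 72.6 in its control. Its ratio to Nr1h3 was 187 in titled EPS, 131 in titled EPS control, 67.2 in clenbuterol and 204 in the clenbuterol control, with 11 to 32 counts of Nr1h3 behind each value.

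Clenbuterol against its control gave small ratios across these genes. Of 35 members with at least 1 TPM in either library, 33 differed by less than 1.2-fold and 18 had a CPM ratio above 1, against 52.0% of genes. Nr1h3 was at least 1.2-fold higher, against 9.46% of all 13788 genes, though it reached 1 TPM only in the clenbuterol library. Abca1, which exports cholesterol to apolipoproteins, was at least 1.2-fold lower, against 10.2% of genes. Without TMM, dividing by library totals alone, the split was 1 higher and 3 lower, the added genes being Mylip and Sc5d. Among members with at least 20 TPM, 0 of 30 passed 1.2-fold in either direction, against 3.41% higher and 1.82% lower among 6911 such genes. The median log2 CPM ratio was 0.02 over the members and 0.01 over all genes.

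Nr1h3 was at 1.13 TPM in clenbuterol and 0.355 TPM in its control, and at 0.360 TPM in titled EPS and 0.519 TPM in titled EPS control. These are 32 and 11 counts in clenbuterol and its control, giving a CPM ratio of 2.99 (interval 1.47 to 6.58). It was the only member past 1.5-fold and past 2-fold in this pair, against 3.75% and 1.88% of genes, and 0 members were 1.5-fold lower, against 3.1%. The clenbuterol library was the highest of the 4, and only there did Nr1h3 reach 1 TPM. Its entry to the genes counted thus came through the library where it was high. The counts are few, Nr1h3 failed a filter at 5 TPM, and the gene overlaps Acp2 on the other strand by 18 bases. Abca1 was at 2.27 TPM in clenbuterol and 2.96 TPM in its control, and at 1.42 TPM in both EPS libraries. Its CPM ratio was 0.783 (0.677 to 0.904), and the clenbuterol control stood above each of the other libraries. In TPM with a pseudocount of 5 and in FPKM with a pseudocount of 1, Abca1 was within 1.2-fold (log2 ratios of -0.13 and -0.20), and Fdft1 was the member at least 1.2-fold lower.

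Counting intervals that left out 1 were split both ways under clenbuterol. They lay above 1 for 8 of 35 members, against 17.7% of genes, and below 1 for 9, against 13.9%. These shares of genes are not matched for depth, and an interval leaves out 1 more readily for deeply counted genes such as most members. All 6 of the lower enzymes were among the 11 of the squalene to cholesterol route: Fdft1 (squalene synthase), Lss (lanosterol synthase), Tm7sf2 (a sterol reductase), Msmo1 (a sterol methyl oxidase), Ebp (a sterol isomerase) and Sc5d (a sterol desaturase). Their ratios ran from 0.847 for Sc5d (0.793 to 0.905) to 0.946 for Fdft1 (0.912 to 0.981). In TPM plus 1 the log2 ratio of Fdft1 was -0.33, further from 0 than in CPM, and that of Sc5d -0.09, nearer to 0. In the same route Sqle, the squalene epoxidase, was at 174 TPM in clenbuterol and 158 TPM in its control, a CPM ratio of 1.11 (1.07 to 1.15), and Hsd17b7, a keto-reductase of sterol demethylation, had a ratio of 1.14 (1.07 to 1.22). The route thus held enzymes on both sides of 1, with a median log2 ratio of -0.08.

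With TMM scaling, no mevalonate enzyme had an interval that left out 1 under clenbuterol. With library totals in place of TMM, the intervals of Hmgcs1, Acat2 and Mvd lie below 1. The interval counts under clenbuterol thus depend on the scaling. Hmgcs1 was at 216 TPM in clenbuterol and 221 TPM in its control, a ratio of 0.979 (0.953 to 1.00). Among the control genes, Srebf2 was at 174 TPM in clenbuterol and 178 TPM in its control, with a ratio of 0.999 (0.975 to 1.02). Srebf1 was at 63.4 TPM in clenbuterol and 61.1 TPM in its control, a ratio of 1.06 (1.01 to 1.11). The intervals of Insig1 (ratio 1.08) and Scap (ratio 1.06, 1.001 to 1.12) also lay above 1, that of Scap by very little. The interval of Insig2, at 69.1 TPM in clenbuterol and 71.2 TPM in its control (ratio 0.985), did not leave out 1. Fasn, the fatty acid synthase, was the only fatty acid gene whose interval left out 1, at 91.6 TPM in clenbuterol and 80.9 TPM in its control, a ratio of 1.10 (1.07 to 1.12). In the transport group Stard4, a cytosolic sterol carrier, had a ratio of 0.895 and Mylip, an LXR target that marks lipoprotein receptors for degradation, one of 0.847, both with intervals below 1. Whether differences of this size would recur in a second culture was not measured.

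**Figure D2:**
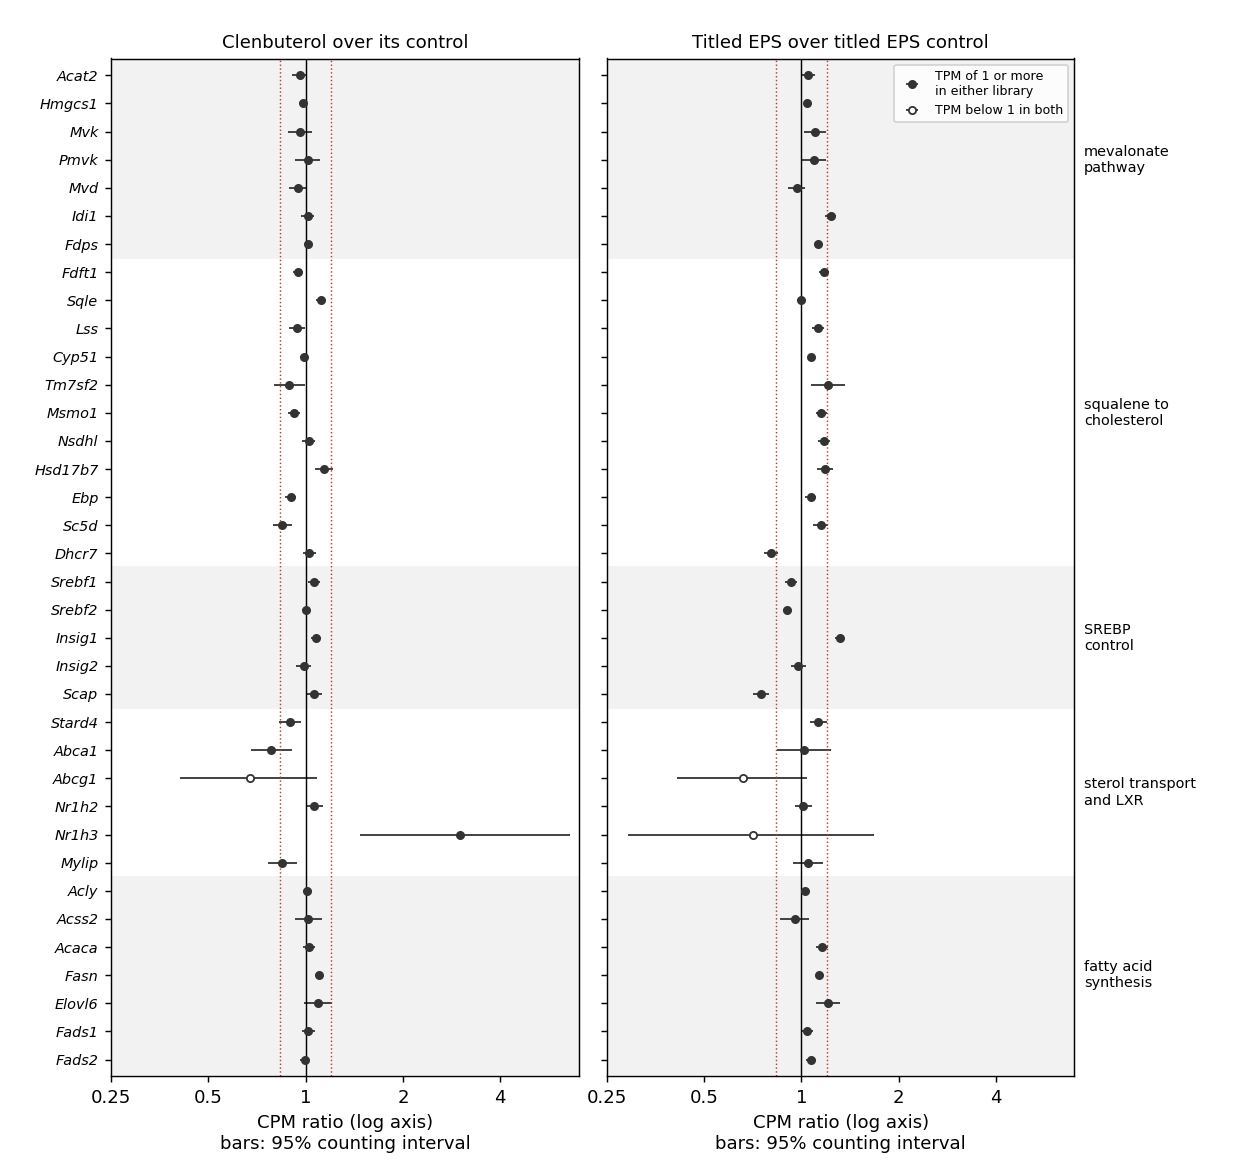
CPM ratio of each gene (log axis) for clenbuterol over its control (left) and titled EPS over titled EPS control (right), each from 1 library a group; bars are 95% counting intervals, dotted lines mark 1.2-fold, and open points had less than 1 TPM in both libraries. Most points lie within the dotted lines, with Nr1h3 at 2.99 on the left and Insig1 at 1.31 and Scap at 0.752 on the right.

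Titled EPS against titled EPS control showed more members on the higher side, by small amounts. Of 34 members with at least 1 TPM in either library, 26 had a CPM ratio above 1, against 51.4% of 13828 genes, and 8 had a ratio below 1, against 48.6%. The interval lay above 1 for 22 members, against 25.0% of genes, and below 1 for 4 (Dhcr7, Srebf1, Srebf2 and Scap), against 25.3%. Among members with at least 20 TPM the interval lay above 1 for 21 of 30, against 34.8% of 7150 such genes, and below 1 for 4, against 29.2%. The sizes were modest, with 28 of 34 members within 1.2-fold. Idi1, Tm7sf2, Insig1 and Elovl6 were at least 1.2-fold higher, against 14.1% of genes, Dhcr7 and Scap at least 1.2-fold lower, against 16.3%, and none reached 1.5-fold, against 4.09% of genes higher and 5.53% lower. The median log2 CPM ratio was 0.10 over the members and 0.01 over all genes.

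Myotube markers also differed within this pair. All 8 had a ratio below 1 in titled EPS over titled EPS control, and 5 of them (Ckm, Acta1, Myh3, Myh8 and Ttn) were at least 1.2-fold lower, with a median log2 ratio of -0.47 over the list. Their part in the sterol gene ratios was not tested, and in bulk RNA fewer cells of a type and less RNA per cell cannot be told apart. Adipocyte markers and the immune markers Ptprc and Adgre1 were at or near 0. Cd68 was higher and Csf1r, with few counts, lower in titled EPS, as given above.

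**Figure D3:**
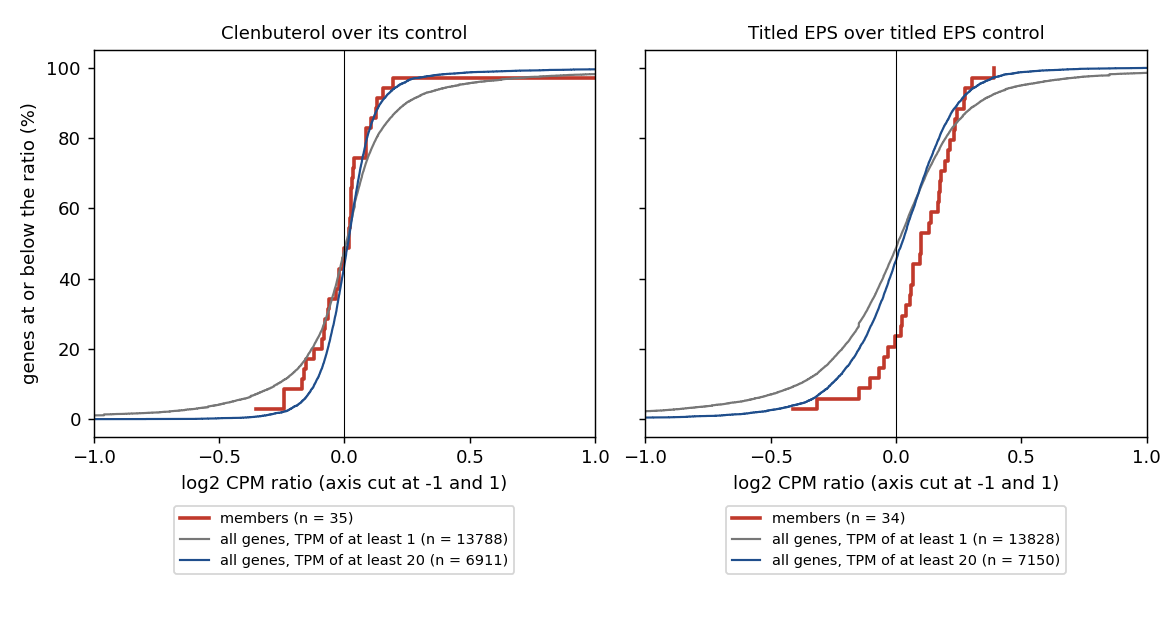
Share of genes (%) at or below each log2 CPM ratio for the members (red), all genes with at least 1 TPM (grey) and all genes with at least 20 TPM (blue), for clenbuterol over its control (left, 35 members) and titled EPS over titled EPS control (right, 34 members). The red line follows the others on the left, where the median of the members is 0.02, and lies to the right of them over most of its course on the right, where it is 0.10.

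The enzymes of the mevalonate and cholesterol routes made up most of the higher side. In titled EPS over its titled control, the interval lay above 1 for 6 of 7 mevalonate genes (median log2 ratio 0.13). The same held for 9 of 11 genes from squalene to cholesterol (median 0.20). All of these genes reached 20 TPM in the pair. Intervals lay above 1 for 34.8% of all genes at that level, and for 25.0% of genes with at least 1 TPM. Idi1, which isomerises isopentenyl diphosphate, was at 135 TPM in titled EPS and 112 TPM in titled EPS control, and at 94.2 TPM in clenbuterol and 94.2 TPM in its control. Its CPM ratio was 1.23 (1.19 to 1.28), and titled EPS was the highest library. Hmgcs1 was at 348 TPM in titled EPS and 344 TPM in titled EPS control, a ratio of 1.04 (1.02 to 1.06). Tm7sf2 was at 27.7 TPM in titled EPS and 23.6 TPM in titled EPS control, against 27.9 TPM in clenbuterol and 31.8 TPM in its control. Its ratio was 1.21 (1.07 to 1.36), and here titled EPS control was the low library of the 4. Tm7sf2 overlaps Vps51 by 9 bases on the same strand.

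Some enzymes of the same route stood apart. Sqle was at 226 TPM in titled EPS and 233 TPM in titled EPS control, a CPM ratio of 0.996 (0.968 to 1.03). Dhcr7, the reductase that makes cholesterol in the last step of one branch of the route, was at 77.5 TPM in titled EPS and 93.7 TPM in titled EPS control, and at 115 TPM in both clenbuterol libraries. Its CPM ratio was 0.804 (0.765 to 0.845), and titled EPS was the lowest of the 4 libraries. Dhcr7 was the only one of the 11 with an interval below 1 in this pair, and the promoter window printed above is 1 of its 3.

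The genes that control SREBP did not share a direction in titled EPS. Insig1, itself a textbook SREBP target, lies on mm10 chromosome 5 from 28071412 to 28078662 and was at 220 TPM in titled EPS and 172 TPM in titled EPS control, against 154 TPM in clenbuterol and 145 TPM in its control. Its ratio of 1.31 (1.27 to 1.36) was the highest among the members in this pair. Scap, on mm10 chromosome 9 from 110333288 to 110384949, was at 32.8 TPM in titled EPS and 45.1 TPM in titled EPS control, with 37.8 TPM in clenbuterol and 36.5 TPM in its control. Its ratio of 0.752 (0.710 to 0.796) was the lowest among the 34 members that reached 1 TPM in this pair, and for Scap the titled EPS control was the highest library and titled EPS the lowest. Srebf2 was at 160 TPM in titled EPS and 182 TPM in titled EPS control, a ratio of 0.902 (0.880 to 0.925). Srebf1 was at 64.5 TPM in titled EPS and 71.0 TPM in titled EPS control, a ratio of 0.931 (0.892 to 0.971), and Insig2 at 73.1 TPM in titled EPS and 77.3 TPM in titled EPS control, a ratio of 0.979 (0.931 to 1.03). If the column names rather than the titles are right, Insig1 would be lower and Scap, at 1.33-fold (1.26 to 1.41), and Srebf2, at 1.11-fold (1.08 to 1.14), higher in the stimulated culture.

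Among the fatty acid genes in titled EPS, intervals lay above 1 for 5 of 7, against 25.0% of all genes, and below 1 for 0, against 25.3%. With at least 20 TPM, they lay above 1 for 4 of 5, against 34.8% of such genes. Below 1 they lay for 0, against 29.2%. Elovl6, which lengthens palmitate, was at 13.0 TPM in titled EPS and 11.0 TPM in titled EPS control, and at 9.65 TPM in clenbuterol and 8.98 TPM in its control, with a titled EPS ratio of 1.21 (1.11 to 1.32). Fasn was at 115 TPM in titled EPS and 105 TPM in titled EPS control, a ratio of 1.13 (1.11 to 1.16). Acaca, the acetyl-CoA carboxylase that commits carbon to fatty acids, had a ratio of 1.16 (1.11 to 1.21). Acss2, which makes acetyl-CoA from acetate, had a ratio of 0.953 (0.859 to 1.06). In the transport group the interval of Stard4 lay above 1 (ratio 1.13), while Abca1, with 229 counts in titled EPS and 203 in titled EPS control, had a ratio of 1.02 (0.839 to 1.24).

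The widest differences among the sterol enzymes lay between the EPS cultures and the clenbuterol cultures, a comparison added after the values were seen. It sets titled EPS and its titled control together against clenbuterol and its control, so it does not depend on which EPS title is right, and nothing in the labels says what else differed between the 2 pairs of cultures. Both EPS libraries stood above both clenbuterol libraries in CPM for 23 of 35 members, against 30.7% of 14213 genes, and below both for 6 (Tm7sf2, Ebp, Dhcr7, Abca1, Nr1h2 and Acss2), against 29.0%. The lower EPS library was at least 1.2-fold above the higher clenbuterol library for 8 members (Acat2, Hmgcs1, Sqle, Lss, Msmo1, Sc5d, Stard4 and Acly), against 10.3% of genes. The reverse held for Abca1, against 9.45%. Among members with at least 20 TPM the counts were 8 of 31 and 0 of 31, against 7.75% and 9.16% of such genes. That filter took 20 TPM in any library. Stard4, 1 of the 8, reached it only in the EPS libraries, where it was high. Myotube markers lay the other way, with 7 of 8 at least 1.2-fold lower in both EPS libraries than in both clenbuterol libraries, and their part in the sterol gene differences was not tested.

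The values of those 8 genes are given as a description. Hmgcs1 was at 348 TPM in titled EPS and 344 TPM in titled EPS control, against 216 TPM in clenbuterol and 221 TPM in its control. Its ratio of geometric mean CPM was 1.53. Lss was at 47.2 TPM in titled EPS and 43.5 TPM in titled EPS control, against 26.1 TPM in clenbuterol and 28.3 TPM in its control, a ratio of 1.61. Msmo1 was at 233 TPM in titled EPS and 207 TPM in titled EPS control, against 136 TPM in clenbuterol and 150 TPM in its control, a ratio of 1.51. That the groups do not overlap follows from how these genes were chosen. Stard4, on the same scale, had the highest ratio, 1.64, with 31.7 TPM in titled EPS and 28.8 TPM in titled EPS control, against 16.8 TPM in clenbuterol and 19.1 TPM in its control. Acat2 had a ratio of 1.44, and its copy Acat3 one of 1.47. Sc5d had a ratio of 1.46, Sqle of 1.35, and Acly, which makes cytosolic acetyl-CoA from citrate, of 1.25.

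On the lower side Abca1 was at 1.42 TPM in both EPS libraries, against 2.27 TPM in clenbuterol and 2.96 TPM in its control, a ratio of 0.537. Dhcr7 (ratio 0.738) and Acss2 (ratio 0.808) came just short of the 1.2-fold gap, as did Mvd (ratio 1.25), which decarboxylates mevalonate diphosphate, on the higher side. Between the pairs of cultures the ratios were 1.06 for Srebf1 and 0.957 for Srebf2, and 1.27 for Insig1, for which both EPS libraries lay above both clenbuterol libraries. Scap had a ratio of 1.00, its EPS libraries lying on either side of the clenbuterol libraries. Summed over the 7 mevalonate genes, levels were 1388 TPM in titled EPS and 1303 TPM in titled EPS control, against 1038 TPM in clenbuterol and 1054 TPM in its control. Summed over the 11 genes from squalene to cholesterol, they were 1370.1 TPM in titled EPS and 1287 TPM in titled EPS control, against 1119 TPM in clenbuterol and 1179.7 TPM in its control. The 7 fatty acid genes summed to 576 TPM in titled EPS and 553 TPM in titled EPS control. Their sum was 482 TPM in clenbuterol and 473 TPM in its control. Scd1 and Scd2, listed apart under fatty acid and lipid supply, were each more abundant than any of these 7. Scd1 was lower in both EPS libraries, at 507 TPM in titled EPS and 518 TPM in titled EPS control (ratio 0.776). It was at 663 TPM in clenbuterol and 626 TPM in its control. Scd2 was higher in both EPS libraries (ratio 1.19).

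**Figure D4:**
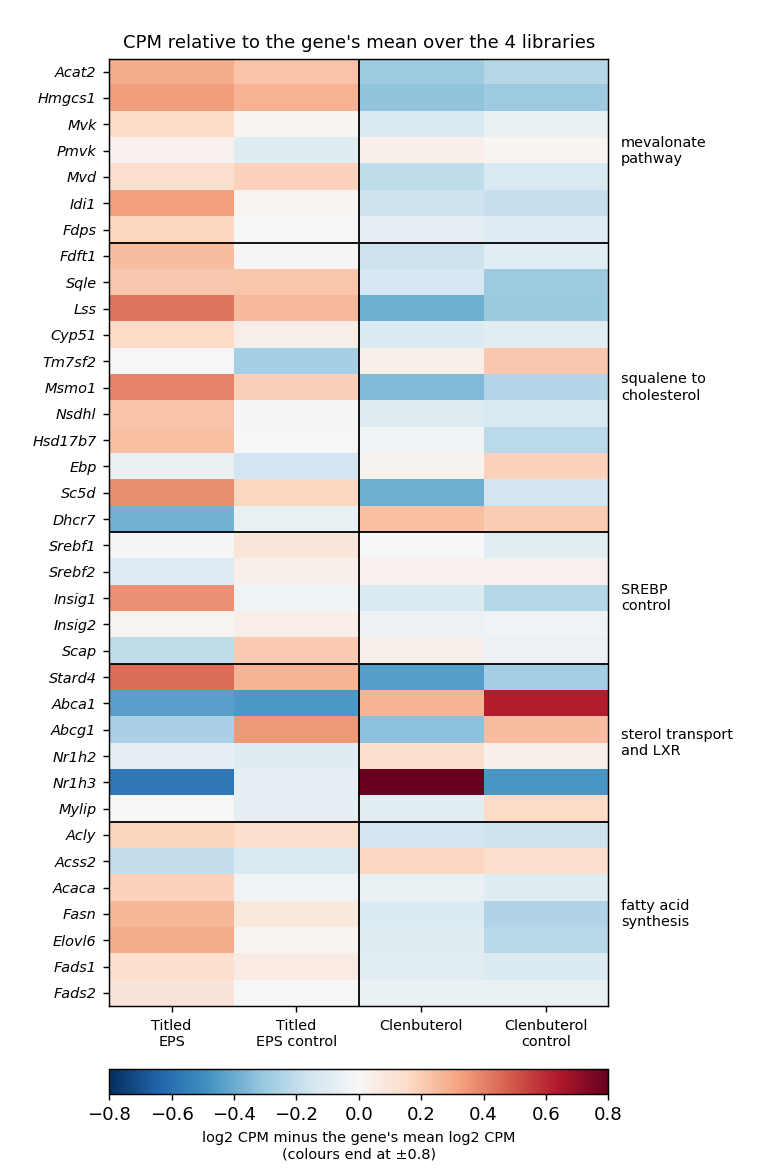
Log2 CPM of each gene in each library minus the gene's mean over the 4 libraries (red above, blue below, colours end at 0.8 either way), with the EPS pair left of the vertical line and the clenbuterol pair right of it. Both EPS columns are red and both clenbuterol columns blue for Hmgcs1, Sqle, Lss, Msmo1 and Stard4, and the reverse holds for Abca1 and Dhcr7.

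A library at least 1.2-fold above or below each of the others was found for 7 of 35 members, against 31.9% of 14213 genes. Titled EPS was apart on the high side for Idi1, Insig1 and Elovl6 and on the low side for Dhcr7. Titled EPS control was apart for Tm7sf2 (low), clenbuterol for Nr1h3 (high) and the clenbuterol control for Abca1 (high). Nr1h3 reached 1 TPM, and so this count, only through the clenbuterol library. Counting intervals left out 1 in both treatments on opposite sides for 9 of 34 members, against 10.6% of 13403 genes, and on the same side for 3 (Hsd17b7, Insig1 and Fasn, all higher), against 8.52%. With the EPS titles exchanged these groups change places. Neither share of genes is matched for the depth of the members.

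Other genes of the pathway, 49 in 5 lists, gave 42 with at least 1 TPM in each comparison. Under clenbuterol 1 was at least 1.2-fold higher, Stard5, a sterol-binding protein at 4.82 TPM in clenbuterol and 3.48 TPM in its control (ratio 1.41, 1.11 to 1.79), and 0 were lower, against the 9.46% and 10.2% of all genes given above. In titled EPS over its titled control 3 were higher, against 14.1% of genes: Rnf139 (1.23, 1.15 to 1.31), a ubiquitin ligase of the endoplasmic reticulum, Ch25h (1.32, 1.11 to 1.58), which makes an oxysterol, and Gramd1b (1.33, 1.22 to 1.45), which moves cholesterol from the plasma membrane. Lower were 6, against 16.3%: Soat1, Gramd1a, Lrp1, Abca2, Me1 and Lpin1. Me1, the malic enzyme that supplies NADPH for fatty acid synthesis, had the largest difference, at 57.1 TPM in titled EPS and 95.4 TPM in titled EPS control, with 54.9 TPM in clenbuterol and 56.4 TPM in its control. Its ratio was 0.614, and titled EPS control was the library that stood apart.

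Among the remaining sterol and isoprenoid enzymes, Lbr, which shares its reaction with Tm7sf2, had ratios of 1.13 under clenbuterol and 1.17 in titled EPS. Of the factors that act beside SREBP, Sp1 had the lowest clenbuterol ratio, 0.867 (0.826 to 0.909), with 1.00 in titled EPS, and Nfyb the highest, 1.15, with 0.918 in titled EPS. The median log2 ratio over the 42 genes was 0.03 under clenbuterol and 0.02 in titled EPS. Between the pairs of cultures, Vldlr, a lipoprotein receptor, had the widest difference of these genes, at 6.70 TPM in titled EPS and 6.29 TPM in titled EPS control, against 2.43 TPM in clenbuterol and 2.21 TPM in its control, a ratio of 2.75. Idi2, Cyp7b1 and Thrsp were at 0 in every library.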

How the data were processed

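The 4 libraries were made with a stranded poly(A) mRNA kit from RNA harvested with ISOGEN, per the labels' protocols, and reads were aligned to mm10 with HISAT2, per the submitters' processing notes. For the quantifier, the annotation, the strand setting and whether mates or fragments were counted, the sources used here give nothing. The authors deposited estimated counts, FPKM, TPM and, per library, coverage (mean depth per base, not used). All sample columns were mapped, and 0 were left over.

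Estimated counts, rounded, were scaled by TMM (edgeR 4.0.16, R 4.3.3) and ratios of CPM given exact Clopper-Pearson intervals at 95% (scipy 1.17.1). These cover counting error only. Genes needed a TPM of at least 1 in either library of a pair. Cut-offs were 1.2-, 1.5- and 2-fold, with no test at 1 library per group. The intervals were tested on counts simulated under the sampling error they assume, so that test says nothing of variation between cultures. A ratio between the 2 pairs of cultures is of geometric mean CPM.

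The members, lists and cut-offs were chosen with earlier results of these data known. Values in every library are given for members with a ratio of at least 1.2-fold and an interval that left out 1, and for Srebf1, Srebf2, Insig1, Insig2, Scap, Fasn, Hmgcs1 and Sqle. The comparison between pairs of cultures, the genes named in it and the filter at 20 TPM were chosen after seeing the data. Of the other pathway genes, those past 1.2-fold and a few at the ends of their lists are named. Alternatives were DESeq2 1.42.0 size factors, library totals, TPM with pseudocounts of 1, 0.1 and 5, FPKM with a pseudocount of 1, no filter, and a TPM of at least 5 or 20. Groups follow the sample titles.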

Additional observations from a re-analysis of the deposited data

Results flagged for a closer look

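For 9 of 34 genes, against 10.6% of all genes, the ratios of the 2 treatments lay on opposite sides of 1, each with a counting interval that left out 1. The difference was not tested, since each contrast has 1 library a group. The share of all genes is not matched for depth, and the members were counted more deeply than most genes. The values are the log2 CPM ratio of titled EPS over its titled control minus that of clenbuterol over its control. In the squalene to cholesterol route the difference was 0.31 for Fdft1, 0.26 for Lss, 0.44 for Tm7sf2, 0.33 for Msmo1, 0.25 for Ebp and 0.44 for Sc5d, each higher in titled EPS and lower in clenbuterol. Stard4, with 0.34, had the same pattern. Srebf1, with -0.19, and Scap, with -0.50, were lower in titled EPS and higher in clenbuterol. Their clenbuterol intervals only just left out 1, at 1.01 to 1.11 for Srebf1 and 1.001 to 1.12 for Scap. Dividing by library totals in place of TMM brings 1 inside both, and neither gene then counts among the 9. With library totals the log2 clenbuterol ratio of Srebf1 was 0.05, against 0.09 in the values reported. If the column names of the EPS pair are right in place of its titles, all 9 genes lie on the same side under both treatments, and the 3 that now share a side (Hsd17b7, Insig1 and Fasn) lie on opposite sides. Fdft1 overlaps Ctsb on the other strand by 774 bases and Srebf1 overlaps Rai1 on the other strand by 114 bases, and the strand setting of the counting is not known.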

How the results depend on the processing

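No paired analysis was possible because each group has 1 library and the groups share only the number 1; for the same reason no replicate could be left out. Of 69 ratios of single members, 13 changed sign under some alternative, and for 0 of these did the counting interval of the value reported leave out 1. The median log2 ratio of the members in titled EPS over its titled control ran from 0.06 to 0.12 over the alternatives. That of clenbuterol over its control ran from -0.03 to 0.02, so it had no stable sign. The count of members at least 1.2-fold lower under clenbuterol, 1 in the values reported, was 2 in TPM with a pseudocount of 1 or 0.1, 3 with library totals, 2 with no filter, and 0 with a filter of 5 or 20 TPM. It stayed 1 in TPM with a pseudocount of 5 and in FPKM, but with Fdft1 (log2 ratios of -0.32 and -0.33) in place of Abca1 (-0.13 and -0.20). The count higher under clenbuterol, also 1, was 0 in TPM with a pseudocount of 5 and with a filter of 5 or 20 TPM. In titled EPS the count higher, 4, was 2 in TPM with a pseudocount of 1 and 1 with a pseudocount of 5. With a filter of 20 TPM it was 3. The count lower, 2, was 1 in TPM with a pseudocount of 5, 1 in FPKM and 4 with no filter. With no filter the added genes are those under 1 TPM. The higher filters remove Nr1h3 and Abca1, and that of 20 TPM also removes Elovl6. The cause of the other changes was not tested. Of the same ratios, 9 lay outside their counting interval in TPM with a pseudocount of 1, 9 with 0.1, 11 with 5 and 7 in FPKM, and 0 with DESeq2 size factors or library totals. Under clenbuterol the log2 ratio of Fdft1 was -0.08 in CPM and -0.33 in TPM with a pseudocount of 1. Depth limits Nr1h3 and Abcg1, while the median half-width of the counting interval was 0.07 in log2 under clenbuterol and 0.06 in the EPS pair.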
